A study of Mus musculus with 4 samples.

Results

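ChIP-seq peaks of H1foo, the linker histone of the oocyte, and of AE4, an antibody used for somatic H1, were described at 9 genes. They are the subcortical maternal complex genes Nlrp5, Tle6, Ooep, Khdc3 and Padi6, and the other peptidylarginine deiminase genes Padi1, Padi2, Padi3 and Padi4. A gene's window was its RefSeq span on mm10 with 5 kb added on either side, and a peak was counted when any part of it lay in the window. The 9 genes stand among 21774 protein-coding genes of the assembled chromosomes. ChIP-seq (chromatin immunoprecipitation and sequencing) had been done in 129S4/SvJae mouse embryonic stem cells overexpressing H1foo-GFP, a fusion of H1foo to green fluorescent protein. All 4 libraries were from these cells, 2 with an H1foo antibody raised in rabbit (polyclonal) and 2 with AE4, a mouse monoclonal antibody, and there was no treatment. Cells without the overexpressed histone were not analysed here, and no source used here states whether AE4 recognises H1foo too. The labelled cell type could not be checked against markers, since peak lists hold no expression.

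Each antibody had 1 deposited peak list, so there was no value per library, no replicate error and no test between antibodies or genes. The H1foo list held 97825 peaks and the AE4 list 47493, and the read depth behind each is unknown. A gene without a peak is therefore a gene without a peak in these lists, not one shown to lack the protein. The score of a peak is the authors' own value, at least 50 in both lists, and served only to order or select peaks of the same list.

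The subcortical maternal complex is an assembly of maternal proteins beneath the membrane of the mammalian egg and early embryo, needed for the first divisions. NLRP5 (also called MATER), OOEP (FLOPED), TLE6 and KHDC3 (FILIA) are components of it, and PADI6 is an egg protein found with it and with the cytoplasmic lattices. The other PADI enzymes convert arginine in proteins to citrulline. PADI1 and PADI3 act in the epidermis and hair follicle, PADI2 is found in many tissues, and PADI4 is a nuclear enzyme that modifies histones, among them linker histone H1 in pluripotent cells. Linker histones bind the nucleosome where DNA enters and leaves it, and H1foo is the variant stored in the oocyte. In mouse the 5 Padi genes lie side by side on chromosome 4, with the oocyte gene Padi6 at one end.

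Peaks were dense at the Padi cluster and at Tle6, few at Ooep, and not found at Nlrp5 or Khdc3. H1foo peaks lay in the windows of 7 of the 9 genes, where 62.6% of all protein-coding genes had one. AE4 peaks lay in 6 of the 9 windows, against 51% of all genes. Both lists were present at 6 of the 9 genes (46.8% of all genes), H1foo alone at 1, Ooep (15.8%), AE4 alone at 0 (4.24%), and neither list at 2 (33.2%). With only 9 genes, these shares were near those of all genes. More distant from the background was the number of peaks. At 6 of the 9 genes, the 5 Padi genes and Tle6, 10 or more H1foo peaks were counted, as at 12.7% of all genes. The 5 Padi genes lie in 1 dense cluster and some of their windows share peaks, so they are not 5 independent cases.

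The 9 windows together held 82 H1foo and 21 AE4 peaks, each counted once. The median number per gene was 13 for H1foo and 3 for AE4, where the median over all protein-coding genes was 2 and 1. Window lengths differ, from 11.7 kb at Ooep to 66.0 kb at Nlrp5, so peaks per 100 kb of window were also taken. By that measure the H1foo order was Padi6 (55.4), Tle6 (49.3), Padi4 (41.3), Padi3 (39.7), Padi2 (35.6), Padi1 (30.4) and Ooep (17.1), with Nlrp5 and Khdc3 at 0. The median over all genes was 3.88, and 2.09% of genes were as dense as Padi6 or denser. For AE4 the order was Padi6 (23.7), Tle6 (9.86), Padi1 (9.35), Padi3 (8.50), Padi4 (7.75) and Padi2 (7.11), with 0 at Ooep, Nlrp5 and Khdc3, and a median over all genes of 0.403. Padi6 was first in both orders. The AE4 values below it rest on 2 to 4 peaks per gene and have no replicate error, so that part of the order is not read as a ranking.

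**Figure D1:**
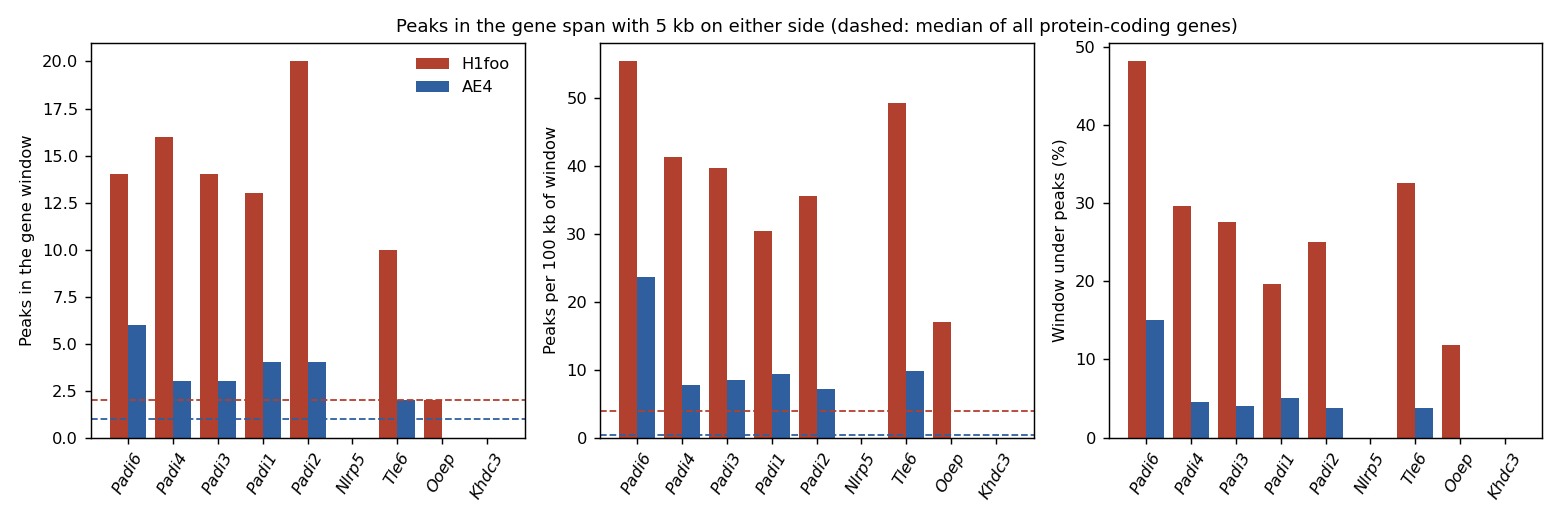
Number of peaks, peaks per 100 kb and percent of bases under peaks in the windows of the 9 genes, for H1foo (red) and AE4 (blue), with 1 list per antibody and no error bars; dashed lines are medians over 21774 protein-coding genes. Padi6 is highest in the density and coverage panels with 55.4 H1foo and 23.7 AE4 peaks per 100 kb, and Nlrp5 and Khdc3 have no bars.

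**Figure D2:**
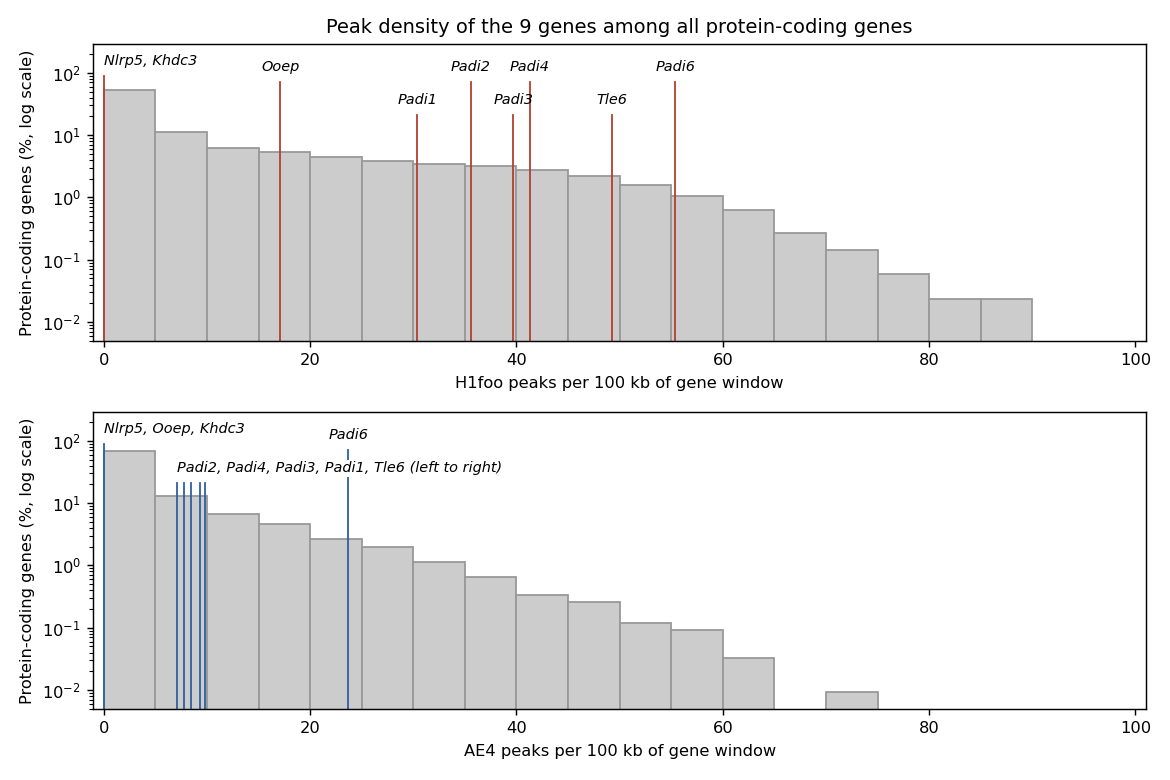
Histograms of peaks per 100 kb of gene window over all protein-coding genes in steps of 5, for H1foo (top) and AE4 (bottom), with a log vertical axis and vertical lines at the 9 genes. For H1foo, Padi1 to Padi6 and Tle6 stand between 30.4 and 55.4, and for AE4 the line of Padi6 at 23.7 stands apart from those of the other Padi genes at 7.11 to 9.35.

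Start sites are shown next, because the 5 Padi genes differ there. The promoter sequences of RefSeq (build GRCm38.p6) run from 250 bases before to 50 bases after a start site, and the 9 genes have 11 of them. H1foo peaks touched a promoter of 3 of the 9 genes, Padi6, Padi2 and Ooep, where 14.4% of 17492 genes with such an entry had an H1foo peak. No AE4 peak touched a promoter of the 9 genes, and 2.66% of all genes had one. The 3 promoters with a peak are printed 5′ to 3′ with the bases under the H1foo peak in capitals, and that of Padi4, the neighbour of Padi6, is printed for contrast with none.
Padi6: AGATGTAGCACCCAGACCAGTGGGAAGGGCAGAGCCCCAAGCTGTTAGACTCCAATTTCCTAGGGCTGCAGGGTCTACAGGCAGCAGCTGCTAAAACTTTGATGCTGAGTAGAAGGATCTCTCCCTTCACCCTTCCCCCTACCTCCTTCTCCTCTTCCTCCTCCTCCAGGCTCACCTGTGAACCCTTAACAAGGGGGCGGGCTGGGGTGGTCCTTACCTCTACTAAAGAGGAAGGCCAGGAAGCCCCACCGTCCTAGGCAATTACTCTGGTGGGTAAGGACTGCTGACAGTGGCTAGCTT
Padi2: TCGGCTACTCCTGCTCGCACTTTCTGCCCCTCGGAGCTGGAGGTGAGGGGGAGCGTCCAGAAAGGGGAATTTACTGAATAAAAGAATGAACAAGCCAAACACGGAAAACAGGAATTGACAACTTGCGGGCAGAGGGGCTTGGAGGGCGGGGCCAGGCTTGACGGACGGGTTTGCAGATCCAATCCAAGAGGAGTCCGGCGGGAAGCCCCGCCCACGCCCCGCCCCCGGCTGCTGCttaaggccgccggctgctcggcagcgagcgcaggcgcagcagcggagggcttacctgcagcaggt
Ooep: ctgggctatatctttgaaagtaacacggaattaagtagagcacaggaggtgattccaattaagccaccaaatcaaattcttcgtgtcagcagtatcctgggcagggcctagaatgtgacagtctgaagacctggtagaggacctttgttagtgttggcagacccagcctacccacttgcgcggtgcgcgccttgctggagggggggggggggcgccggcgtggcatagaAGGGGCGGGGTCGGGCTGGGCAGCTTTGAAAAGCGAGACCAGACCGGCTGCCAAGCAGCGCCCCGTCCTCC
Padi4: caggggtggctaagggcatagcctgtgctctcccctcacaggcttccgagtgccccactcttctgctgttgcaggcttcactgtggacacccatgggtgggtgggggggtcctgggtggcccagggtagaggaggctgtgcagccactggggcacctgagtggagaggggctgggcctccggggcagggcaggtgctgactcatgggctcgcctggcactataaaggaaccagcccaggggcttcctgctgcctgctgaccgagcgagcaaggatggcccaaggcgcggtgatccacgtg

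The Padi6 promoter (chr4:140742594-140742893, minus strand) lay wholly under an H1foo peak of 778 bp with a score of 92.0, and its start site was inside that peak. At Padi2 (chr4:140906110-140906409, plus strand) the peak of 2354 bp and score 342 covered 235 of the 300 bases and ended 16 bp before the start site. A second H1foo peak, with a score of 174, followed inside the gene and overlapped the AE4 peak nearest to that start site, 516 bp downstream. At Ooep (chr9:78378539-78378838, minus strand) a peak with a score of 122 covered 71 of the 300 bases, those around and after the start site, and reached into the gene. The printed capitals thus run over the whole Padi6 window, up to just before the start at Padi2, and only over its end at Ooep.

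Padi4, Padi3 and Padi1 had their nearest H1foo peak inside the gene. It was 669 bp from the start site at Padi4, 479 bp at Padi3 and 2.11 kb at Padi1. The nearest AE4 peak was 16.6 kb away at Padi4, 4.89 kb at Padi3, 11.1 kb at Padi1 and 3.78 kb at Padi6, in each case downstream. Tle6, which has a start site on each of 2 listed promoters, had its nearest H1foo peak 494 bp upstream of the outer one, with a score of 138, and an AE4 peak 976 bp upstream. Within 1 kb of a start site, 6 of the 9 genes had an H1foo peak (25.7% of all genes) and 2, Padi2 and Tle6, an AE4 peak (6.32%). The count of 3 promoters therefore rests on the narrow window of 300 bases.

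**Figure D3:**
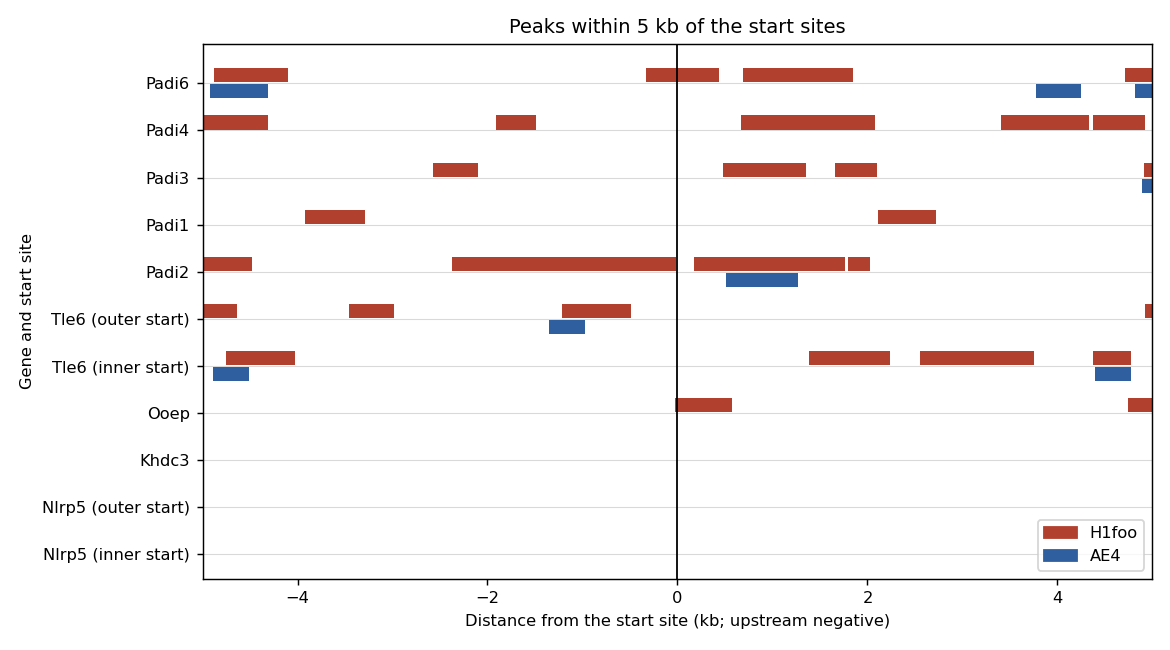
Peaks of H1foo (red, upper bar) and AE4 (blue, lower bar) within 5 kb of the 11 start sites of the 9 genes, with upstream sequence to the left; the horizontal axis is distance in kb and bar length is peak width. An H1foo bar crosses the start line at Padi6 and Ooep and ends beside it at Padi2, and the rows of Khdc3 and Nlrp5 are empty.

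The 3 promoters with an H1foo peak differed in their number of CG dinucleotides. CG occurred 2 times in the Padi6 promoter, 22 times in that of Padi2 and 15 times in that of Ooep, against 8 times in the promoter of Padi4 without a peak. In the other promoters of the 9 genes without a peak it ranged from 0 at Khdc3 to 18 at the outer Tle6 promoter. The median over 21263 promoters of protein-coding genes was 13. G and C made up 56.0% of bases at Padi6, 63.3% at Padi2, 58.3% at Ooep and 66.3% at Padi4, with a median of 56.3% over all promoters. Over all promoters the share with an H1foo peak was 9.3% at 0 to 4 CG, 22.0% at 5 to 13, 15.8% at 14 to 24 and 8.34% at 25 or more, against 13.5% over all, so Padi6 belongs to a class with fewer such peaks than the whole. The GC box letters GGGCGG, searched on both strands, occurred once or more in 46.2% of all promoters. They occurred 1 time at Padi6, 3 times at Padi2 and 1 time at Ooep. Promoters without an H1foo peak had them too, 1 time at Padi3 and at the outer Nlrp5 promoter and 2 times at the outer Tle6 promoter. Padi4, Padi1, Khdc3 and the inner promoters of Tle6 and Nlrp5 had them 0 times. The E-box letters CANNTG, counted once where both strands match, occurred in 69.0% of all promoters, 2 times at Padi6, 3 times at Padi4, 1 time at Ooep and 0 times at Padi2. A match of letters is a description and not a bound site.

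Padi6 was set against the other genes of its cluster. From Padi6 to Padi2 the cluster spans 225 kb (chr4:140727355-140952586), with Padi6, Padi4, Padi3 and Padi1 on the minus strand and Padi2 on the plus strand. It held 79 H1foo and 24 AE4 peaks by peak centre, or 35.1 and 10.7 per 100 kb. The 15.3 kb of the Padi6 gene itself (chr4:140727355-140742643) held 8 H1foo centres, or 52.3 per 100 kb. The 4 other Padi genes had 30.5 to 43.5 per 100 kb. H1foo peaks covered 53.6% of the bases of Padi6 and 19.0 to 32.7% of the others, and AE4 peaks covered 20.9% against 4.60 to 6.61%. The contrast in covered bases was thus wider than that in H1foo peak number, and Padi6 lay outside the range of the other 4 genes in each of these measures. With 1 gene against 4 in a single list per antibody, it was not tested.

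Within the window of Padi6 the H1foo scores were, from the side of Rcc2 to that of Padi4, 111, 65.2, 78.7, 342, 359.7, 144, 55.9, 162, 238, 54.3, 171, 92.0, 142 and 127. The 2 highest stood at the end of the gene away from the start site. The peak with 342 crossed that end over 2103 bp (chr4:140726124-140728226), and that with 359.7 lay just inside it (chr4:140728693-140730394). In the whole H1foo list, 1.01% of peaks scored as high as the latter or higher. The peak over the promoter, with 92.0, was below the median of 135 in this window. The 2 highest scores of Padi6 therefore lay at its far end, while peaks with 238 in its middle and 171 within 2 kb of its start also scored above that median.

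Not all peaks of that window belong to Padi6 alone. The genes stand close together, so 4 of its 14 H1foo peaks were also in the window of Rcc2, which encodes a regulator of chromosome condensation, and 4 in that of Padi4. Of these, 2 touched the Rcc2 gene and 2 the Padi4 gene. The peak just inside the limit of 5 kb, with a score of 127, was 4.98 kb from Padi6 and lay in Padi4. Just outside the limit were a peak with a score of 67.0 at 5.25 kb from Padi1 and one with 64.9 at 5.60 kb from Khdc3. With the gene span alone, Padi6 kept 9 H1foo and 5 AE4 peaks.

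AE4 scores in the Padi6 window were 136, 104, 90.4, 51.4, 65.5 and 103 in the same order. The 2 peaks at the far end, with 136 and 104, overlapped the 2 H1foo peaks with 359.7 and 144. Of the 6 AE4 peaks 5 overlapped an H1foo peak, and the exception, with a score of 65.5, lay 4.01 kb from the start of the gene. The window of Padi6 thus held more shared peaks than that of any other gene of the cluster. Of these 5 AE4 peaks, 1 lay inside the Padi4 gene, with a score of 103. Over the whole AE4 list 51.2% of peaks overlapped an H1foo peak, and 84.5% of those with scores of at least 100. The exact binomial 95% interval for 5 of 6, 35.9 to 99.6%, includes the 51.2% of the whole list. A higher AE4 share at Padi6 than in the whole list is therefore not shown.

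Seen from the H1foo list, 5 of 14 peaks at Padi6 overlapped an AE4 peak, or 35.7% (exact binomial 95% interval 12.8 to 64.9%). At the other 4 Padi genes it was 7 of 60, or 11.7% (4.82 to 22.6%), and over the whole list 24.1%. The 2 groups of peaks overlap, since 4 of the 14 at Padi6, with scores of 171, 92.0, 142 and 127, are also among the 60. Of these, the peak with 142, at the end of Padi4, overlapped an AE4 peak and adds to both shares. Intervals cover counting error only, and neighbouring peaks are not independent. Scores were higher at Padi6, with a median of 135 against 81.3, and peaks with high scores are shared more often in the whole list, at 44.1% for scores of at least 100. Among peaks with scores of at least 100, the shares were 4 of 9 at Padi6 (13.7 to 78.8%) and 3 of 18 at the other Padi genes (3.58 to 41.4%). The difference in sharing was not tested.

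**Figure D4:**
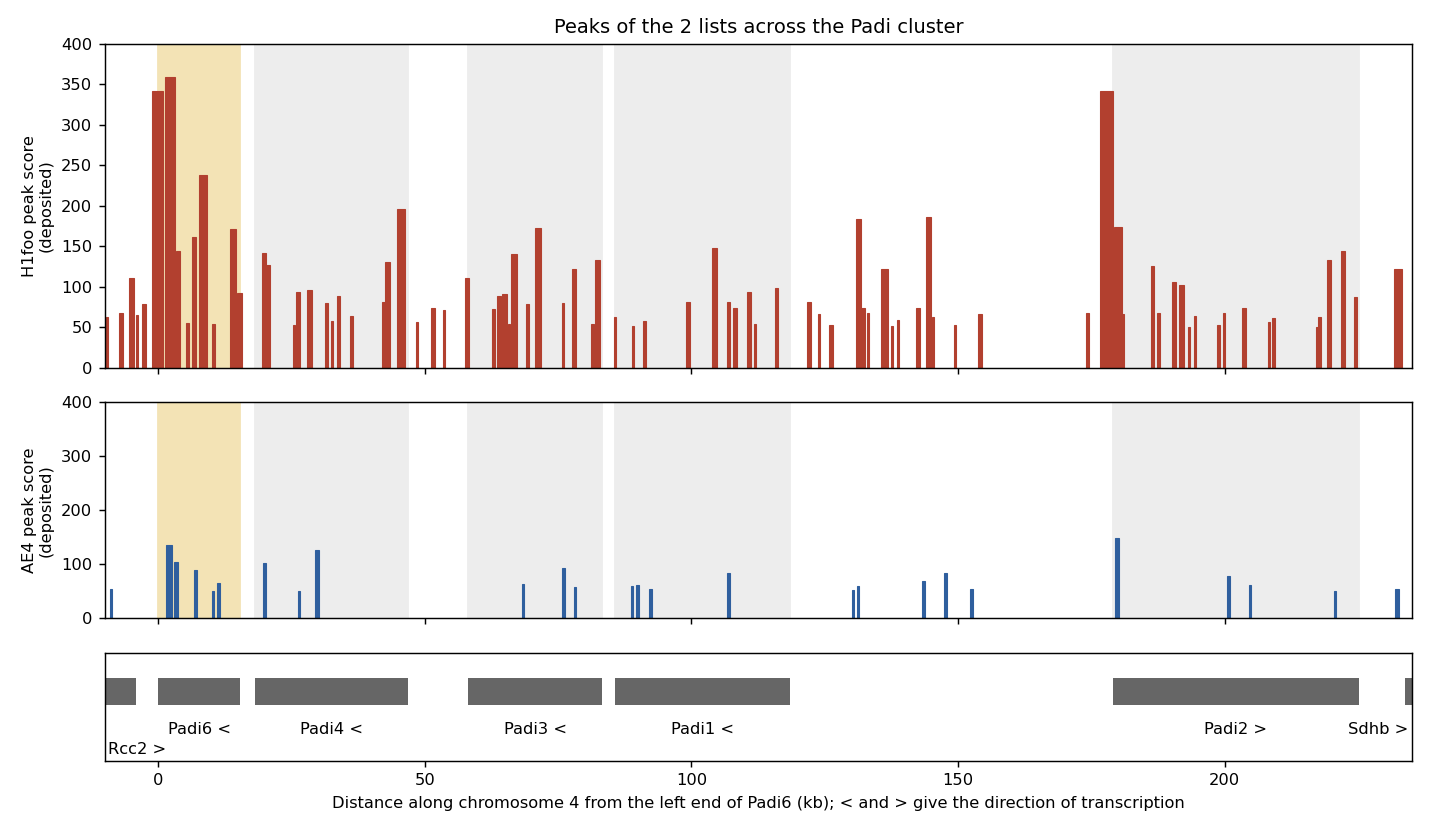
Peaks of H1foo (top) and AE4 (middle) along the Padi cluster, each bar as wide as its peak and as high as its deposited score, with genes drawn below; the horizontal axis is distance in kb from the left end of Padi6. The highest H1foo bars stand at the left end of Padi6 (342 and 359.7) and at the start of Padi2 (342), and AE4 bars stand closest together within Padi6, which is shaded yellow.

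Padi2, which encodes the broadly expressed enzyme, had 20 H1foo peaks in its window, more than any other of the 9 genes, and is with 46.3 kb the longest of the cluster. Its highest H1foo score, 342, was at the promoter, and its highest AE4 score, 148, stood less than 1 kb inside the gene. Only 1 of its 20 H1foo peaks overlapped an AE4 peak, and 3 of its 4 AE4 peaks were apart from H1foo. Padi2 and Padi6 thus had nearly equal highest H1foo scores at opposite ends of the gene.

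Padi4, the nuclear enzyme gene, had 16 H1foo and 3 AE4 peaks in 38.7 kb. Its highest H1foo peak, with a score of 196, lay 669 bp inside the start site. The AE4 peak with its highest score of 126 lay at chr4:140756753-140757581 and overlapped no H1foo peak. The other 2 AE4 peaks did. Padi4 thus had its highest AE4 score away from H1foo peaks, while that of Padi6 lay on one.

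Padi3 and Padi1, the genes of hair and skin, had the lowest highest scores of the cluster, 173 and 148 for H1foo and 93.1 and 83.7 for AE4. Padi3 had 14 H1foo and 3 AE4 peaks, and Padi1 13 and 4. Of these, 3 H1foo peaks lie in both windows. The 60.6 kb between Padi1 and Padi2, which hold no protein-coding gene, had 16 H1foo and 5 AE4 centres, or 26.4 and 8.26 per 100 kb. The 11.1 kb between Padi4 and Padi3 had 4 H1foo centres, or 35.9 per 100 kb, and no AE4 centre. The gaps of 2.86 kb between Padi6 and Padi4 and of 2.33 kb between Padi3 and Padi1 held no centre of either list. H1foo peaks reaching in from the genes still covered 11.7% of the first of these narrow gaps and 9.91% of the second. H1foo centres thus also lay between genes of the cluster, in the 2 wider gaps.

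The surroundings of the cluster were dense too. In the 1 Mb around the Padi genes lay 301 to 386 H1foo and 127 to 164 AE4 peaks, where the median over all genes was 46 and 21. Only 3.86% of genes had as many H1foo peaks around them as Padi6, and 0.974% as many as Padi2. All 6 flanking genes, 3 on either side, had peaks of both lists (46.8% of all genes), at 30.0 to 47.2 H1foo peaks per 100 kb. The highest H1foo peak in the window of Rcc2, with a score of 342, is the one that crosses the far end of Padi6. Among the flanking genes, Igsf21 had 30.0 and Sdhb, a subunit of mitochondrial succinate dehydrogenase, had 35.8. Atp13a2, an ion and polyamine pump, had 41.8, Arhgef10l had 43.3, and Rcc2 had 47.2. Arhgef10l had the highest scores of the flanking genes, 354 for H1foo and 281 for AE4, where the highest of Padi6 were 359.7 and 136. The H1foo densities of Padi1 to Padi4, at 30.4 to 41.3, fell within or near that of these neighbours, while that of Padi6, at 55.4, was above all 6. That density counts 14 peaks that touch the Padi6 window, of which 4 are also in the window of Rcc2. With the peak centre required in the window, Padi6 had 12. Densities of the neighbours by that rule are not given here, so its place above Rcc2 rests on the counting rule. For AE4 the neighbours ranged from 3.15 at Rcc2 to 25.7 at Mfap2, a microfibril protein gene, and Padi6 at 23.7 was within that range.

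The other complex genes lie on 3 further chromosomes and differed from each other. Tle6, a relative of the Groucho corepressors (chr10:81590904-81601185, minus strand), had 10 H1foo and 2 AE4 peaks in 20.3 kb. The H1foo scores were 111, 94.8, 96.9, 102, 94.2, 129, 123, 138, 56.3 and 86.9 from the side of Tle2 outward. The highest, 138, was below the highest of each of the 5 Padi genes. Of the 10 H1foo peaks, 4 touched the Tle6 gene, and 6 lay in its flanks. Both AE4 peaks had a score of 50.4, close to the lowest of the list, and each overlapped an H1foo peak.

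Tle6 shares its surroundings with its relatives. It overlaps Tle2 at its far end, and 7 of its H1foo peaks were also in the window of Tle2, of which 4 touched the Tle2 gene. Tle2 had 12 H1foo peaks, up to a score of 254, and Tle5, also in this stretch, had 10, up to 287. The 1 Mb around Tle6 held 272 H1foo and 127 AE4 peaks and 48 protein-coding genes, the most of any of the 9. The TLE genes elsewhere had few peaks, with 3 H1foo peaks at Tle3, 1 at Tle4, and 2 AE4 peaks and no H1foo peak at Tle1. H1foo peaks were thus numerous at the 3 TLE genes of chromosome 10 and few at the 3 on other chromosomes.

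Ooep, a small KH domain gene (chr9:78376903-78378588), had 2 H1foo peaks and no AE4 peak in 11.7 kb. The first, with a score of 122, crossed its start site, and the second, with 75.3, lay on the other side of the gene, toward the stem cell gene Dppa5a, and was in the window of that gene as well. The nearest AE4 peak was 23.1 kb away, with a score of 67.8. Around Ooep the 1 Mb held 75 H1foo and 39 AE4 peaks, above the gene median but far below that of the Padi cluster. Ooep was therefore the only one of the 9 genes with H1foo and without AE4 in its window, in lists of unequal length.

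Khdc3, a further KH domain gene (chr9:73101381-73106631), had no peak of either list in its window. The nearest H1foo peak was 5.60 kb away in the neighbouring Rab27a gene, with a score of 64.9, and the nearest AE4 peak 11.5 kb away, with 66.8. The 1 Mb around it held 80 H1foo and 28 AE4 peaks, a number close to that around Ooep. An absence of peaks in the window at Khdc3 thus stood in a region that had peaks.

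Nlrp5 (chr7:23385889-23441923, plus strand) stood in a region without peaks. The nearest H1foo peak was 642 kb away and the nearest AE4 peak 663 kb away, and the 1 Mb around it had 0 peaks of either list, as at 2.70% of protein-coding genes. Of 22 protein-coding genes in that 1 Mb, 18 were Vmn1r genes, which encode pheromone receptors of the nose. Vmn1r and Nlrp genes have close relatives of similar sequence, so reads there may be hard to place, and the part of this in the absence of peaks was not tested.

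Relatives of the complex genes were then counted by lists chosen from general knowledge. Of 11 other Nlrp genes of the oocyte 4 had an H1foo peak (62.6% of all genes) and 0 an AE4 peak (51% of all genes). The 4 were Nlrp14 with 2 peaks up to a score of 109, and Nlrp4f, Nlrp9b and Nlrp4c with 1 each, at 62.2, 55.5 and 50.9. The other 7, Nlrp2, Nlrp4a, Nlrp4b, Nlrp4e, Nlrp4g, Nlrp9a and Nlrp9c, had none in either list, as Nlrp5 did. Among 4 KH domain relatives of Ooep and Khdc3, only Dppa5a had H1foo peaks, 2 up to 75.3, and Khdc1a, Khdc1b and Khdc1c had none of either list. The shares with an H1foo peak, 4 of 11 Nlrp genes and 1 of 4 KH domain genes, were thus below that of all genes, in short lists that were not tested.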

How the data were processed

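The labels' protocols name an enzymatic ChIP kit for cutting the chromatin and a ligation-based kit for the libraries. Reads were aligned with Bowtie 1.1.2 to mm10, per the submitters' processing notes, and peaks were called with MACS, per the file headers, with no version. The authors deposited 1 list per antibody with a score per peak, whose scale is not named. The sources used here do not say how an antibody's 2 libraries became 1 list, whether an input was used or whether the libraries came from separate cultures. Depth is unknown.

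From these lists, peak starts were set to count from 1 and gene spans taken from NCBI RefSeq on GRCm38.p6, which shares the coordinates of mm10. Another 113 protein-coding genes on scaffolds were left out. Overlap meant at least 1 bp. Start sites and strands came from the RefSeq promoter sequences. Counting was done in Python 3.11.15 with pandas 2.3.3 and checked on simulated windows. The pseudogene Nlrp4d was left out of its list. Genome sequence of the peaks was not analysed here. No p-value was computed. Intervals are exact Clopper-Pearson intervals. Alternatives changed the window, the overlap rule and the lowest score. The genes and lists were chosen with earlier results of these data known. All 9 genes and all matched genes of the further lists are named.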

Additional observations from a re-analysis of the deposited data

How the results depend on the processing

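No paired analysis was possible because each antibody has a single list with no value per library, so that leaving out a replicate was not possible either. Counts moved by over 1.5 times chiefly with the lowest score admitted. With scores of at least 75 in both lists, the 9 windows held 52 H1foo and 9 AE4 peaks, with 7 H1foo peaks that overlapped an AE4 peak, and the 4 other Padi genes had 34 and 6. At 100 or more in both lists, the 9 windows held 30 and 5, with 4 H1foo peaks that overlapped an AE4 peak of that score (7 overlapped one of any score), 3 genes had an AE4 peak, Padi6 had 9 and 3, the 4 other Padi genes 18 and 3, and 13 genes of the further lists had an H1foo peak in place of 20. All 7 genes with an H1foo peak had one at either limit. The H1foo density of Padi6 over the pooled density of the other Padi genes, 1.52 as reported, was 3.24 at scores of at least 100 and 1.29 to 2.15 in the other alternatives, so Padi6 stayed denser in each. Padi6 had 9 H1foo peaks with the gene span alone and 9 with 2 kb on either side, since its flanks hold peaks of the neighbouring genes. Genes with an H1foo peak near a start site were 6 within 1 kb, a window chosen after seeing the data. Unknown depth limits every absence.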

Other observations

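A further list held 10 maternal effect genes outside the complex. Of these, 5 had an H1foo peak in their window and 4 an AE4 peak, where 62.6% and 51% of all protein-coding genes had one. Npm2, which encodes the egg's nucleoplasmin, had 5 H1foo peaks up to a score of 274 and 1 AE4 peak with 145. Kpna7, an importin of the oocyte, had 8 H1foo peaks up to 106, and Zbed3, which encodes a further protein found with the complex, had 6 up to 125. Bcas2 and Mos had 1 H1foo peak each and no AE4 peak. Zar1, needed at the passage from oocyte to embryo, had 1 AE4 peak with a score of 72.8 and no H1foo peak, a state found at 4.24% of all genes. Btg4, Dppa3, Tet3 and H1f8 had no peak in either list. H1f8 is the gene of H1foo itself, so the endogenous locus of the overexpressed histone had no peak within 5 kb.

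Of the 36 genes in the 5 further lists, the 6 that flank the Padi cluster had 183 H1foo and 70 AE4 peaks, with peaks counted for each gene whose window they touch. The 11 Nlrp genes had 5 and 0.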
